A study of Rattus norvegicus with 31 samples.

Results

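Recombinant inbred strains of the HXB/BXH rat panel fell into 2 sets by the level of Nefh, the gene of the neurofilament heavy chain, in the left ventricle. The strains were chosen by their Nefh values alone: a strain with a Nefh value over 6 in the table of RefSeq genes counted as high and a strain at 6 or less as low. All 21 strains of the panel were placed, 10 as high and 11 as low, out of 31 libraries in the series. Because Nefh itself chose the strains, its own values are given only as a description, and every test below concerns other genes.

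Each strain of the panel is an inbred mosaic of 2 progenitor genomes, those of SHR, the spontaneously hypertensive rat (SHR/OlaIpcv), and of BN-Lx (BN-Lx/Cub), a Brown Norway strain with normal blood pressure. The HXB strains (substrain Ipcv) and the BXH strains (substrain Cub) come from reciprocal crosses of these progenitors, and all rats were untreated. The high set held 4 BXH strains (BXH5, BXH8, BXH10 and BXH13) and 6 HXB strains (HXB3, HXB5, HXB7, HXB20, HXB24 and HXB31). The low set held 5 BXH strains (BXH2, BXH6, BXH9, BXH11 and BXH12) and 6 HXB strains (HXB1, HXB13, HXB17, HXB21, HXB25 and HXB29). Each strain gave 1 library of total RNA depleted of ribosomal RNA, so the strain was the replicate and the spread within a strain could not be seen. Sequencing batch 2 held 3 high and 3 low strains, and sequencing batch 3 held 7 high and 8 low strains. The progenitors, which the rule did not use, gave 4 SHR and 4 BN-Lx libraries in sequencing batch 1. The labels used here give neither age nor sex of the animals. Library medians of the 21 strains ran from 7.89 to 7.95 on the log2 scale, and since the files give no counts, sequencing depth is unknown.

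Neurofilaments are intermediate filaments of the axon, built as polymers of a light, a medium and a heavy chain together with alpha-internexin (Ina) or peripherin (Prph). The heavy chain carries a long tail with many phosphorylation sites and is best known from large myelinated axons. In the heart, neurofilament protein is a usual marker of nerve fibres and of the neurons of cardiac ganglia, and the bulk of ventricular RNA comes from cardiomyocytes. In the rn7 annotation deposited with the series Nefh lay on the minus strand of chromosome 14 from 79830362 to 79840347, with 4 exons and 1 assembled transcript.

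The levels of Nefh left a wide gap between the sets. In the high set the lowest, median and highest values were 6.77, 6.99 and 7.15 (log2), and in the low set 4.49, 4.84 and 5.19. The members nearest to the threshold were HXB20 with 6.77 in the high set and BXH9 with 5.19 in the low set, so that no strain lay close to 6. The gap was present in each batch, with a mean of 6.92 in high and 4.82 in low strains of batch 2 and of 6.97 in high and 4.88 in low strains of batch 3. It was also present in each family, with means of 7.04 and 4.78 in high and low BXH strains and of 6.90 and 4.94 in high and low HXB strains. Between the sets the means differed by 2.09 in this table, by 2.53 for the single RefSeq transcript of Nefh and by 2.92 among the authors' assembled genes, where high strains ran from 6.45 to 7.28 and low strains from 3.23 to 4.78.

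**Figure D1:**
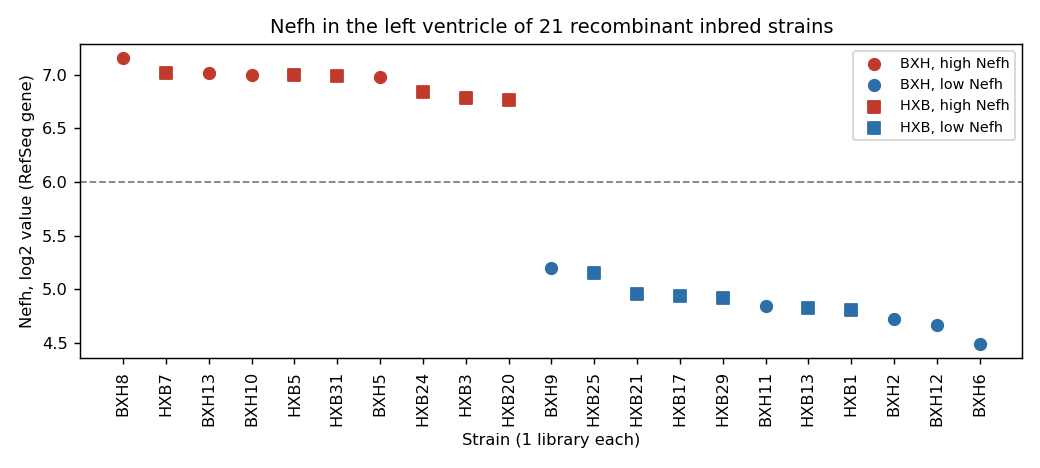
Log2 value of Nefh in 21 recombinant inbred strains, 1 point for each library, with the high set on the left, the low set on the right and the threshold of 6 as a dashed line. Values of the high set lie between 6.77 and 7.15 and values of the low set between 4.49 and 5.19, with strains of both families in both sets.

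The progenitors, too, were apart. In the table of assembled genes Nefh was 7.15, 6.72, 6.97 and 7.05 in the SHR libraries, against 3.22, 3.40, 3.82 and 3.29 in the BN-Lx libraries. In the same table the high set spanned the SHR values, and the low set overlapped the BN-Lx values and reached above them. A pair of further libraries of SHR replicate 4, sequenced in batches 2 and 3, had values of 6.47 and 6.73 in the table of RefSeq genes, both over the threshold.

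The main comparison asked which other genes differ between strains with high and strains with low Nefh, near the gene and elsewhere in the genome. A single RefSeq gene out of 19099 passed the threshold (limma with batch as a covariate, two-sided, Benjamini-Hochberg adjusted p under 0.05), which is 0.00524% of the genes tested. This gene was Ccdc96, which encodes a coiled-coil protein known from cilia and flagella, and it was higher in strains with high Nefh. An unadjusted p under 0.05 was seen for 323 genes, or 1.69%, and the median difference over all genes was 0.00. The share of 1.69% was below the fraction of 0.05 expected where no gene differs. In bulk tissue such as this, fewer cells of a type and less RNA per cell cannot be told apart.

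Ccdc96 had a lowest, median and highest value of 5.86, 5.96 and 6.12 (log2) in high strains and of 4.79, 5.15 and 5.86 in low strains. The ranges met without overlapping, since BXH13 with 5.861 was the lowest of the high set and BXH11 with 5.859 the highest of the low set. All other low strains were at 5.43 or less. The difference was 0.79 (SE 0.10, limma adjusted p = 0.00144). Ccdc96 was the only RefSeq gene whose groups did not overlap, again 0.00524% of the genes tested. Its single RefSeq transcript also did not overlap between the groups, as 0.00253% of 39591 transcripts did not, and differed by 0.91 (SE 0.14), which did not pass the threshold (limma adjusted p = 0.0512). Within batches the difference of Ccdc96 was 0.88 in batch 2 and 0.75 in batch 3, and neither passed on its own (limma adjusted p = 0.788 and 0.188). It passed without each of the 21 strains in turn, with differences from 0.74 to 0.85.

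Ccdc96 carried no position under its own name in the deposited annotation. In the order of RefSeq genes on the GRCr8 assembly its nearest neighbours with a position were LOC120096818 and Tada2b, which in rn7 span 74116687 to 74290758 on chromosome 14 and lie 5.54 Mb from Nefh at the nearest point. An assembled gene without a name (PRN7.71G0197298, a single exon on the minus strand from 74276568 to 74279072) lay between Tbc1d14 and Tada2b, 5.55 Mb from Nefh. Across the 21 strains its values followed those of Ccdc96 with a Pearson r of 0.98, and both values come from the same libraries. It lies where Ccdc96 is placed by its neighbours, so both may measure 1 gene, which was not tested. Their results are therefore not to be read as separate. The neighbours of Ccdc96 did not pass: Tbc1d14, of the TBC domain family of Rab GTPase regulators, differed by 0.05 (SE 0.11), Tada2b, a subunit of histone acetyltransferase complexes, by 0.05 (SE 0.05), and Grpel1, a cochaperone of mitochondrial protein import, by 0.01 (SE 0.05). The promoter of Ccdc96 is shown because it is the gene that passed. The sequence is from RefSeq (GRCr8, chr14:78503666-78503965, minus strand), runs 5′ to 3′ from 250 bases before to 50 bases after the start, and has matches to CACGTG and to CCAAT or its reverse complement ATTGG in capitals.
Ccdc96: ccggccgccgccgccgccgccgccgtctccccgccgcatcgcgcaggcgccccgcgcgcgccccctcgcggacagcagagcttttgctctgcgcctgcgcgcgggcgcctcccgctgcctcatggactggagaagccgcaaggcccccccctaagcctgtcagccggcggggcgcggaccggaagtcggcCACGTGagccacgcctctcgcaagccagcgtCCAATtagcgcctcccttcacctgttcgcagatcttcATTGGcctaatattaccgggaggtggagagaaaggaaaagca
Of its bases 70.3% are G or C, against a median of 51.7% over 33469 rat promoters of the same length. It holds 1 match to CACGTG, an E-box palindrome, and 2 matches to CCAAT on either strand. At least 1 match was found in 6.42% of these promoters for CACGTG and in 37.5% for CCAAT. No match to GGGCGG (33.1% of promoters, either strand) or to TATAAA (14.2%) was found in this window. These are letter matches in the reference genome and not measurements of the panel.

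Among the authors' assembled genes, 2 of 46062 passed, or 0.00434%, and both were among the 657 within 20 Mb of Nefh, or 0.304% of those. An unadjusted p under 0.05 was seen for 1113 assembled genes (2.42%), and the values of the sets overlapped for every assembled gene besides Nefh. The gene without a name beside Tada2b was higher in high strains, with a lowest, median and highest value of 5.70, 5.99 and 6.15, against 4.08, 4.91 and 5.86 in low strains. BXH11 was the only low strain within the range of the high set, and the difference was 1.11 (SE 0.16, limma adjusted p = 0.0106). In the progenitors it was 6.28, 6.05, 6.03 and 5.98 in SHR, against 4.58, 4.66, 4.21 and 4.58 in BN-Lx, a difference of 1.57 (SE 0.19, limma adjusted p = 0.000127).

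The other was a fragment of 2 exons (from 79430506 to 79444418, minus strand) within Mtmr3, the gene of a phosphatase of phosphoinositides, 0.39 Mb from Nefh. It was lower in high strains, with a lowest, median and highest value of 6.46, 7.32 and 7.74, against 7.64, 8.70 and 8.95 in low strains. BXH9 with 7.64 and BXH12 with 7.86 were the lowest of the low set, and only BXH9 fell into the range of the high set. The difference was -1.27 (SE 0.18, limma adjusted p = 0.0106). SHR libraries had 7.42, 6.97, 7.13 and 7.09, against 8.79, 8.67, 8.89 and 8.81 in BN-Lx libraries (difference -1.64, SE 0.12, limma adjusted p = 1.77e-06). Of 9 assembled genes named Mtmr3 this was the only one to pass between the Nefh sets, and 3 passed between the progenitors, all lower in SHR. Mtmr3 as a RefSeq gene differed by 0.05 (SE 0.05) between high and low strains and had a Pearson r of -0.45 with the fragment across the 21 strains. Within batches the fragment differed by -1.48 in batch 2 and -1.19 in batch 3 and the gene without a name by 1.36 and 1.01. None of these passed within a batch, where limma adjusted p ran from 0.0614 to 0.898. Both passed without each strain in turn.

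**Figure D2:**
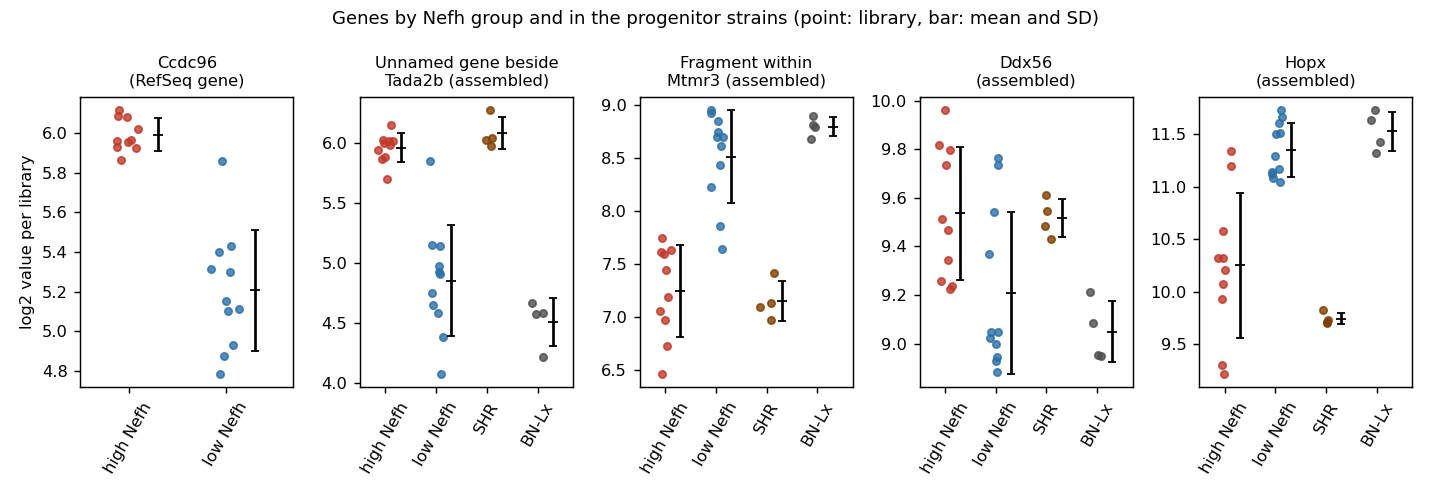
Log2 values of Ccdc96 as a RefSeq gene in high and low Nefh strains, and of 4 assembled genes in these strains and in SHR and BN-Lx, with 1 point for each library and a bar for mean and SD. The fragment within Mtmr3 was lower in high strains and in SHR, and the gene beside Tada2b was higher in both. The gene beside Tada2b may be Ccdc96 itself, which was not tested. The low Nefh strain BXH11 lies just below the high strains for Ccdc96, and within their range for the gene beside Tada2b.

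Within 20 Mb of Nefh, 210 RefSeq genes with a position were tested, and 0 of them passed (limma), while 6 had an unadjusted p under 0.05, or 2.86%. Outside the window 0 of 13520 genes passed and 184, or 1.36%, had an unadjusted p under 0.05. Both shares were below the fraction of 0.05 expected where no gene differs. Another 5369 genes had no single position by name, with Ccdc96 as the 1 call among them (0.0186%), and 133 of these, or 2.48%, had an unadjusted p under 0.05. When such genes were placed between their RefSeq neighbours, an alternative chosen after seeing the data, the window held 264 genes and 1 call, Ccdc96. Of 39591 RefSeq transcripts limma called 0, and 1191 (3.01%) were at an unadjusted p under 0.05. These were 21 of 389 (5.4%) in the window, 693 of 23517 (2.95%) elsewhere and 477 of 15685 (3.04%) without a position.

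None of the 10 genes nearest to Nefh passed. The 5 tested genes on the side of lower coordinates were Nipsnap1, a mitochondrial protein gene, Thoc5, a subunit of the THO complex of mRNA export, Nf2, which encodes the tumour suppressor merlin, Zmat5, of the minor spliceosome, and Uqcr10, of respiratory complex III. On the other side they were Ap1b1, of the AP-1 clathrin adaptor, Gas2l1, a linker of actin and microtubules, Rasl10a, a small GTPase of the Ras family, Ewsr1, an RNA-binding protein gene, and Rhbdd3, of the rhomboid family. Their differences ran from -0.09 for Gas2l1 (SE 0.10) to 0.04 for Nf2 (SE 0.04), all with a limma adjusted p = 1.00, and the ranges of the sets overlapped for each. Thoc5, 0.04 Mb from Nefh, had a median of 10.45 in high and of 10.45 in low strains, and Ap1b1, also 0.04 Mb away on the other side, had 11.78 in high and 11.80 in low strains. Thoc5 and Nipsnap1 shared an assembled gene, and the spans of Uqcr10 and Zmat5 and of Gas2l1 and Rasl10a overlap, so their reads may not be fully separated. The libraries were stranded, but the sources used here do not state whether counting used strand.

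The 6 RefSeq genes of the window with an unadjusted p under 0.05 were, in order of p, Ddx56, Ankrd36, Evc, Gal3st1, Cpz and Dbnl, and they are named after their values were seen. Ddx56, a nucleolar RNA helicase 1.27 Mb from Nefh, had a lowest, median and highest value of 9.45, 9.56 and 9.82 in high strains and of 9.05, 9.19 and 9.62 in low strains. The sets overlapped through BXH strains of the low set, of which BXH12 reached 9.62, while every HXB strain of the high set was above every HXB strain of the low set. The difference was 0.32 (SE 0.08, limma adjusted p = 0.707), and with family as a covariate it was 0.34 and passed (limma adjusted p = 0.0104). As an assembled gene Ddx56 differed by 0.33 (SE 0.13, limma adjusted p = 1.00), with more overlap. Its RefSeq transcript differed by 0.17 (SE 0.10) and did not pass. In SHR the assembled Ddx56 was 9.61, 9.54, 9.43 and 9.48, against 9.21, 8.95, 9.08 and 8.95 in BN-Lx (difference 0.47, SE 0.09, limma adjusted p = 0.00477).

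Assembled genes of chromosome 14 were then set beside the progenitors, which share no library with the panel. Of 46063 assembled genes 14.3% passed between SHR and BN-Lx, with 11.9% of the 658 in the window and 14.4% elsewhere, and 20.6% did not overlap between the progenitors. Of the 657 window genes without Nefh 27 had an unadjusted p under 0.05 between high and low strains, or 4.11% (2.39% of the 45405 elsewhere), and 11 of these 27 (40.7%) had passed between SHR and BN-Lx with the same sign. On the rest of chromosome 14 this held for 19 of 42 such genes (45.2%), and on other chromosomes for 70 of 1044 (6.7%). Among all genes tested in these regions, 11.7%, 13.5% and 14.4% had passed between the progenitors in either direction. The shares of 4.11% and 2.39% at an unadjusted p were both below the fraction of 0.05 expected where no gene differs. The window genes with matching calls included a second Mtmr3 fragment with -0.57 between the Nefh sets and -0.96 between the progenitors, and Ankrd36 with -0.79 and -1.32. Adcy1, an adenylyl cyclase gene 2.13 Mb from Nefh, went the other way, with -0.39 between the Nefh sets and 0.94 between SHR and BN-Lx.

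**Figure D3:**
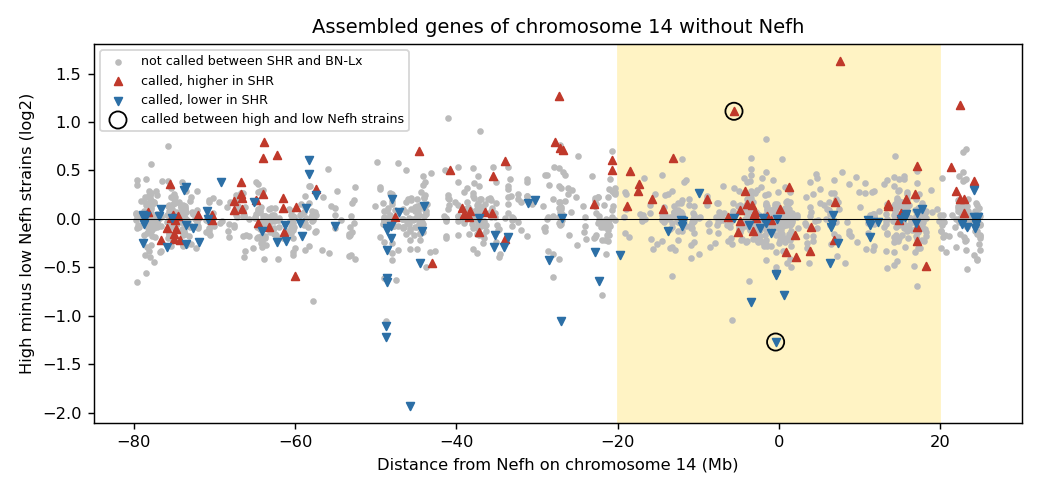
Difference between high and low Nefh strains (log2) of the assembled genes of chromosome 14 without Nefh, by distance from Nefh in Mb, with the window of 20 Mb shaded. Triangles are genes that passed between SHR and BN-Lx, pointing up where SHR was higher, and rings mark the 2 genes that passed between the Nefh sets, at -5.55 and -0.39 Mb.

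How far the strains kept the progenitor levels of Nefh along the chromosome was described by counting sides. For each assembled gene that passed between the progenitors with a difference of at least 1 (log2) and without overlap, a strain was put on the SHR or the BN-Lx side of the midpoint between the progenitor means. High Nefh counted as the SHR side. There were 2740 such genes besides Nefh, 95 of them on chromosome 14. The count of strains on the side of their Nefh was 20 of 21 for the gene beside Tada2b, where BXH11 differed, and 19 for the fragment within Mtmr3, where BXH9 and BXH12 differed. Both had passed between the Nefh sets in these same libraries, so their counts partly restate those calls. The other genes within 2 Mb had lower counts. Another assembled gene of Mtmr3, also at -0.39 Mb, had 11. A gene without a name at -0.9 Mb had 14, and Ankrd36 at 0.61 Mb had 13. Medians over genes were 13.5 strains within 2 Mb of Nefh (4 genes), 13.0 over 2 to 5 Mb (2 genes), 13.0 over 5 to 10 Mb (7 genes), 12.5 over 10 to 20 Mb (14 genes), 13.0 over 20 to 40 Mb (23 genes) and 11 beyond (45 genes). Counts ran from 11 to 19 within 2 Mb, from 9 to 17 over 2 to 5 Mb and from 10 to 20 over 5 to 10 Mb. On other chromosomes the median was 10 over 2645 genes, with a highest count of 18. Counts of at least 17 were reached by 9 of the 95 genes of chromosome 14 (9.47%) and by 10 of the 2645 on other chromosomes (0.378%). These counts share the same 21 libraries, and genes near each other are not independent.

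**Figure D4:**
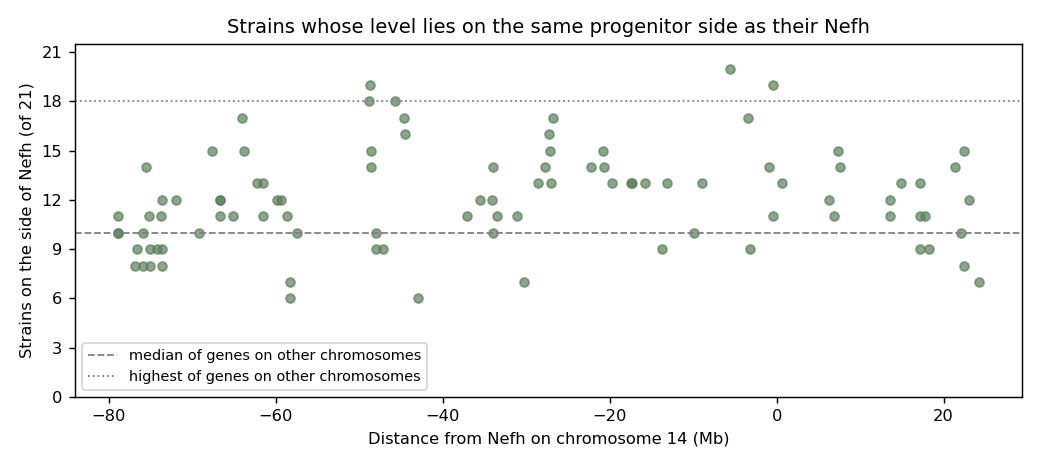
Number of the 21 strains on the same progenitor side as their Nefh, for 95 assembled genes of chromosome 14 by distance from Nefh in Mb, with the median (10) and the highest count (18) of genes on other chromosomes as lines. Counts of 19 and 20 are seen at -0.39 and -5.55 Mb, and counts of 18 and 19 also near Hopx at -48.7 Mb. Another gene at -0.39 Mb has a count of 11, and counts within 2 Mb of Nefh run from 11 to 19.

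The highest counts far from Nefh lay around Hopx, whose homeodomain-only protein modulates serum response factor in cardiomyocytes. Hopx is on chromosome 14 from 31055912 to 31082909, 48.7 Mb from Nefh, and is named here as 1 of the 5 RefSeq genes most like Nefh. It had a lowest, median and highest value of 9.65, 10.36 and 11.52 in high strains and of 11.01, 11.47 and 11.84 in low strains. In the high set 8 strains were below every low strain, and BXH5 with 11.37 and HXB7 with 11.52 stood among the low strains. The difference was -1.01 (SE 0.19) and did not pass (limma adjusted p = 0.165). It passed without HXB7 with -1.14 (limma adjusted p = 0.00456) and without BXH5 with -1.12 (limma adjusted p = 0.0141). Its RefSeq transcripts gave differences of -1.12, -1.12 and -0.81, none of which passed. In the progenitors Hopx was 9.72, 9.82, 9.73 and 9.71 in SHR, against 11.63, 11.32, 11.73 and 11.43 in BN-Lx (difference -1.78, SE 0.09, limma adjusted p = 9.92e-08). Its side was that of Nefh in 19 of 21 strains. This count partly restates its choice as a gene like Nefh in the same libraries.

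Likeness to Nefh was measured by Pearson's r over the 21 strains after centring within batch, as a description. The 5 genes with the highest absolute r were Ccdc96 (0.86), Fads1 (0.77), Hopx (-0.75), Sqle (0.75) and LOC103694288 (-0.73). Because Nefh takes only 2 levels, r over all strains mostly reflects the difference between the sets. Fads1, a fatty acid desaturase gene on chromosome 1, had a lowest, median and highest value of 9.13, 9.44 and 9.64 in high strains and of 8.98, 9.11 and 9.38 in low strains. Its difference was 0.28 (SE 0.06, limma adjusted p = 0.294), and in the progenitors it was -0.46 (SE 0.10, limma adjusted p = 0.0103), with SHR lower. Sqle, the squalene epoxidase of sterol synthesis on chromosome 7, had 6.80, 6.95 and 7.23 in high strains and 6.31, 6.67 and 6.85 in low strains (difference 0.33, SE 0.07, limma adjusted p = 0.581). LOC103694288 was near the low end of the scale in every strain, at 1.10 to 1.29 in high and 1.19 to 1.40 in low strains.

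No other neurofilament gene passed. Of the partner chains only Nefm and Prph were found in the table of RefSeq genes. Nefm, the medium chain, was 0.92 to 1.16 in high strains and 0.95 to 1.57 in low strains, near the low end of the scale (difference -0.06, SE 0.06). Prph, peripherin, was 6.78, 7.28 and 7.63 (lowest, median, highest) in high strains and 6.72, 7.15 and 7.69 in low strains (difference 0.16, SE 0.11, limma adjusted p = 1.00), and it was 0.29 higher in SHR than in BN-Lx (SE 0.15, limma adjusted p = 0.232). Of 12 measured neurofilament and neuronal genes without Nefh, limma called 0, also at an unadjusted p under 0.05, and the median difference was -0.02. Among them Npy, a peptide of sympathetic nerves, averaged 7.93 ± 0.43 in high and 7.88 ± 0.28 in low strains, and Tubb3, neuronal tubulin, 5.05 ± 0.19 in high and 4.99 ± 0.31 in low strains (SD, n = 10 and 11). Dbh, which makes noradrenaline, averaged 5.19 ± 0.14 in high and 5.33 ± 0.19 in low strains. Among 13 Schwann cell markers no gene passed in limma, also at an unadjusted p under 0.05, with a median difference of -0.01. The mean log2 level of the Schwann cell list ran from 6.35 to 6.69 in high and from 6.29 to 6.75 in low strains.

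Intermediate filaments of muscle and other cells, heart muscle markers and stress genes gave no call. Among 15 other intermediate filament and linker genes the limma test called 0, also at an unadjusted p under 0.05, with a median difference of -0.01 and a range from -0.13 for Gfap to 0.19 for Synm. Des, desmin, averaged 15.91 ± 0.30 in high and 15.97 ± 0.32 in low strains. Of 11 cardiomyocyte markers 0 passed and differences ran from -0.03 to 0.02, and the list averaged 17.96 to 18.20 in high and 18.02 to 18.32 in low strains, the highest mean level of the lists examined. Of 10 hypertrophy stress genes 0 passed, with 0.10 for Nppa (SE 0.23) and -0.32 for Myh7, the slow myosin heavy chain (SE 0.18). Xbp1 and Nf2 lie close to Nefh, and lists around them were therefore examined. Of 15 genes of the unfolded protein response 0 passed, with Xbp1 at -0.08 (SE 0.07) as a RefSeq gene and -0.33 (SE 0.12, unadjusted p = 0.00859, limma adjusted p = 1.00) as an assembled gene. Of 13 genes of Nf2 and the Hippo pathway 0 passed, with a median difference of 0.03. These 2 lists, the cardiomyocyte markers and the stress genes held 0 genes with an unadjusted p under 0.05 in limma.

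Markers of other cell types gave no call. Over all 15 lists 140 genes were measured and limma called 0 of them. At an unadjusted p under 0.05 there were 2, or 1.43%, against 1.69% of all genes. The 2 were Postn, a matrix protein gene of activated fibroblasts, with -0.54 (SE 0.17), and Myl4, the atrial essential light chain, with -0.33 (SE 0.16). Postn averaged 10.48 ± 0.53 in high and 11.02 ± 0.28 in low strains. The median difference of each list lay between -0.05 for atrial and 0.12 for mesothelial markers, and the median of all listed genes was 0.01.

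**Figure D5:**
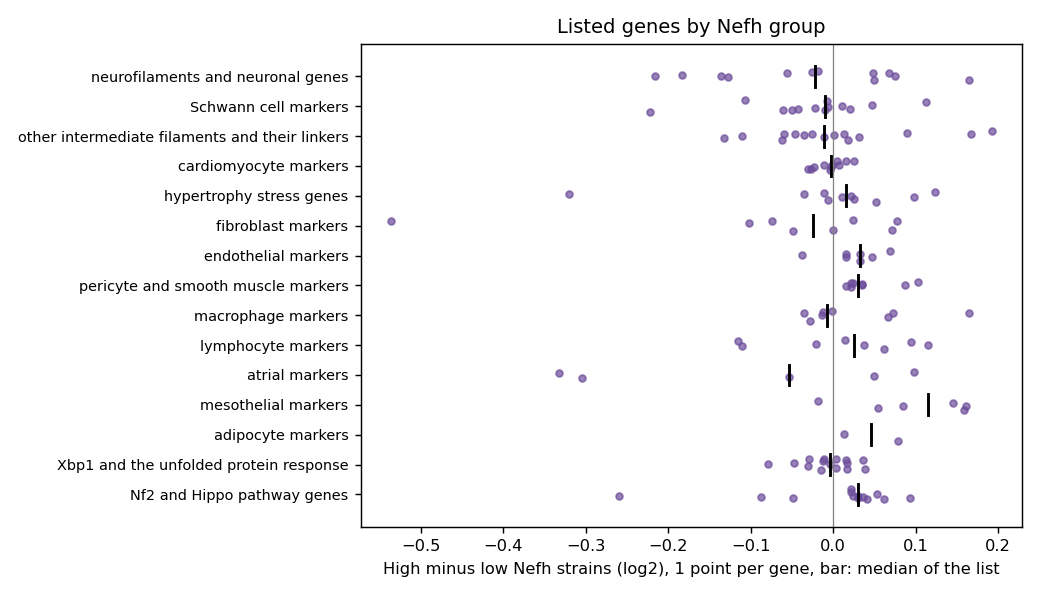
Difference between high and low Nefh strains (log2) for each measured gene of 15 lists, with a bar for the median of each list. Medians lie between -0.05 and 0.12, and Postn at -0.54 is the lowest value.

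Cd36, the fatty acid transporter on chromosome 4 that is known to be defective in SHR, took several levels across the same strains. It was 11.87, 13.82 and 14.31 (lowest, median, highest) in strains with high Nefh and 11.84, 12.05 and 12.91 in strains with low Nefh (difference 1.22, SE 0.28, limma adjusted p = 0.621), and it passed only without BXH5 (1.41, limma adjusted p = 0.0451) among the 21 strains left out in turn. No progenitor value of Cd36 is given, since no assembled gene had this name alone. RGD1565355, also on chromosome 4, differed by 2.02 (SE 0.41, limma adjusted p = 0.294). As a RefSeq gene it ran from 8.46 to 12.1 in high and from 8.22 to 9.43 in low strains. The assembled gene of this name was 14.9 to 15.1 in SHR and 14.9 to 15.2 in BN-Lx. Whether reads of Cd36 and RGD1565355 were fully separated was not tested. The interaction of set and family passed for 0 of 19099 genes in limma, with 385 at an unadjusted p under 0.05. With 4 high and 5 low BXH strains and 6 of each among HXB strains, this cannot show that no difference depended on family.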

How the data were processed

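Left ventricle RNA of 21 recombinant inbred strains and 8 progenitor libraries was compared. Build rn7 and RSEM 1.3.1, StringTie 1.3.5, HISAT2 2.1.0, DESeq2, Bowtie2 2.3.4.3 and cutadapt 1.9.1 are named, with no role, by the submitters' notes on processing. The authors deposited log2 values per RefSeq gene, RefSeq transcript and assembled gene. How they were transformed is not given in the sources used here, and differences at low values may be compressed. Values of 69 spike-in RNAs in the RefSeq gene table, and those in the other tables, were left out. Positions came from the deposited annotation, by gene name where all assembled genes of a name were on 1 chromosome.

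Strains were split at a Nefh value of 6, and limma 3.58.1 in R 4.3.3 (lmFit, eBayes with an intensity trend, two-sided, Benjamini-Hochberg over all features, threshold 0.05) was fitted to the whole of each table with batch as a covariate and with Nefh left out. SHR and BN-Lx were fitted without a covariate. A progenitor value of a symbol is that of the assembled gene with this name alone and the highest mean, which need not match the RefSeq gene. Named genes were Nefh, called genes, the 5 nearest genes on each side, the 5 with the highest absolute r, neurofilament genes and called list members. Others are named after their values were seen, and some are not reported here. The split, the lists and the rule were chosen with earlier results of these data known. The labels do not say whether progenitor replicates share a litter, so p-values there measure the spread between these samples. Fits were tested on simulated data. Alternatives covered trend, normalization, low values, batch, family, window, annotation and left-out libraries. Python 3.11.15, pandas 2.3.3 and matplotlib 3.10.9 were used.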

Additional observations from a re-analysis of the deposited data

Results flagged for a closer look

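Among 32 groups of 4 to 10 samples examined for a sample far from the others, 2 were picked out, and chance alone picks about 5% of groups. Nipsnap1 was 7.11 (log2) in BXH5, above the next highest of the 10 high Nefh strains at 6.71, a gap of 0.519 of the range. Fads1 was 9.13 in HXB5, below the next lowest high Nefh strain at 9.38, a gap of 0.498 of the range. Without HXB5 Fads1 passed the threshold with a difference of 0.31 (limma adjusted p = 0.0467).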

How the results depend on the processing

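The call of Ccdc96 held under 26 of 28 alternatives and was lost within each batch, and the fragment within Mtmr3 and the gene beside Tada2b kept their direction under every alternative run and were also lost within each batch. RefSeq calls numbered 0 within batch 2, 0 within batch 3 and 0 among genes with a mean over 6, where Ccdc96 was not tested. There were 2 with family as a covariate (Ddx56 added, so that the window then held 1), and 2 in the table of assembled genes. Unadjusted p was under 0.05 for 770, 362 and 109 genes in the first 3 of these (limma). Leaving out each strain gave 1 to 4 calls, with 0 in the window each time and 0 to 2 elsewhere. Without BXH5 there were 4 (Cd36, Hopx and RGD1565355 added), without HXB5 3 (Fads1 and RGD1565355), and 2 without BXH11 (Kctd8), HXB31 (LOC120093085) or HXB7 (Hopx). Placing genes between RefSeq neighbours, chosen after seeing the data, put 1 call in the window. Assembled genes gave 1 call among rows with a mean over 6. Chosen after seeing the data, batch 3 alone gave 0, with 1239 at an unadjusted p under 0.05, and batch 2 alone 3, none of them shared with the main fit. Leaving out strains there gave 2 to 6, with 4 without BXH5 and 6 without HXB7. Transcripts gave 0 calls (1191 at an unadjusted p under 0.05), 1 with no trend and 2 with no batch covariate. Between SHR and BN-Lx the 6603 calls became 4211 among genes with a mean over 6 and 4377 to 6114 when a replicate was left out, with 4377 without SHR replicate 4. A replicate block gave 5437, and same-numbered replicates had correlations of deviations from -0.17 to 0.11, so the numbers do not pair the samples. Where no cause is named it was not tested. Without counts, what depth limits cannot be stated, and values near 1 (log2) are at the low end of the scale.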

Other observations

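The following genes are given as values, chosen after they were seen, and none passed the test over all genes. Between strains with high and low Nefh, Stard4, a sterol carrier, differed by 0.29 (SE 0.09) and Fads2, a desaturase, by 0.18 (SE 0.06). Hmgcs1, of the mevalonate pathway, had 0.10 (SE 0.07), Srebf2 0.14 (SE 0.08) and Insig1 0.04 (SE 0.07). Between SHR and BN-Lx Stard4 was lower in SHR (-0.37, SE 0.09, limma adjusted p = 0.0126).

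Cpa3, a protease gene of mast cells, was 4.94, 5.54 and 6.61 (lowest, median, highest) in high strains and 4.62, 5.05 and 5.81 in low strains, a difference of 0.51 (SE 0.17), and Cma1, which encodes mast cell chymase, differed by 0.49 (SE 0.17) and Mcpt1l1 by 0.52 (SE 0.16). Kit, on chromosome 14 at 47.2 Mb from Nefh, differed by -0.05 (SE 0.07), and Kitlg by 0.11 (SE 0.19). Between SHR and BN-Lx Cpa3 differed by 1.33 and Cma1 by 1.61, and both passed.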
